A study of Drosophila melanogaster with 5 samples.

Results

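The genes described here are named for the proteins of the cytosolic ribosome of Drosophila melanogaster. They were taken from the gene count table by symbol: every gene whose FlyBase symbol begins with RpL or RpS followed by the protein number, with the stalk genes RpLP0, RpLP1 and RpLP2 included and the mitochondrial mRp genes left out. This gave 92 of 17807 genes, of which 54 are named for the large subunit and 38 for the small subunit. The rule also took RpL24-like and RpLP0-like, whose counterparts in yeast are assembly factors. Both are counted here with the large subunit. The table holds RNA counts from larval hemolymph. The control was Cg-Gal4 crossed to Canton-S (Cg-Gal4 > CS, 2 libraries), and the other group was Cg-Gal4 > UAS-abd-A (3 libraries, here abd-A), in which Gal4 drives a UAS copy of the Hox gene abd-A. Each library was made from 20 larvae of 96 to 102 h after egg laying. Both groups carry Cg-Gal4, which is active in hemocytes (blood cells) and also in the fat body, and the control carries no UAS insertion. The question was which transcripts of the blood change when abd-A is misexpressed there.

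The cytosolic ribosome reads mRNA on its small subunit and joins amino acids on its large subunit. Each of its proteins is normally present once per ribosome, except for the stalk proteins RpLP1 and RpLP2, so their genes are expressed together, and their output rises with growth under the TOR and Myc pathways. In flies, loss of 1 copy of many of these genes causes the Minute phenotype of slow growth and thin bristles, and several of the genes have a second copy used mainly in the germline.

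The libraries held between 1252969 and 4959111 counts, and the controls were the 2 smallest (1252969 and 2567624). Counts of abd-A itself were 0 and 21 in the controls and 620, 474 and 638 in the abd-A libraries. Lamellocyte markers were higher in abd-A (9 of 9 called, summed level 1253 and 1704 CPM in the controls, where CPM is the library-scaled level against 19510 to 22640). All 6 crystal cell markers and 6 of 10 plasmatocyte markers (35420 and 38970 against 11720 to 14220) were lower. Fat body markers were lower too (6 of 7 called, 2771 and 22780 against 507 to 1653 CPM), as were 5 of 5 muscle markers (1033 and 2581 against 308 to 457). None of the plasmatocyte, crystal cell, lamellocyte, fat body or muscle markers was at 0 in every library of a group. Salivary gland and midgut markers were low throughout, at no more than 51.5 CPM summed in any library. The levels of blood cell and fat body markers thus differed between the groups, and those of the fat body also between the 2 controls. The part of these differences in the results on ribosomal protein genes was not tested. In RNA from whole hemolymph, fewer cells of a type and less RNA per cell cannot be told apart.

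Most ribosomal protein genes had more counts in abd-A than in the controls, in both subunits and by a similar amount. They took 3.51 and 4.71% of all counts in the controls and 6.98, 6.68 and 7.13% in the abd-A libraries. The means were 4.11% ± 0.85 (SD, n = 2) and 6.93% ± 0.23 (SD, n = 3). The 95% Wilson interval of the share was 3.48 to 3.54% in the shallowest library, which covers counting error only, so the controls differed by more than counting error. The abd-A libraries lay above both controls (exact permutation test, two-sided, p = 0.1, the smallest value that 2 against 3 libraries can give). Over the counts of nuclear protein-coding genes alone the shares were 4.92 and 6.71% against 8.47, 8.37 and 8.57%.

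Gene by gene, 88 of the 92 genes had enough counts to test (at least 10 summed over the 5 libraries). In edgeR's quasi-likelihood test, calls needed both a 2-fold change and an adjusted p under 0.05, with p-values adjusted over all 11624 genes tested. By this rule 37 ribosomal protein genes were called higher in abd-A, 20 of the large and 17 of the small subunit, where 11% of all genes tested were called higher. Only RpS5b and RpL22-like were called lower (12.7% of all genes). With the adjusted p alone, 65 were higher, against 12.7% of all genes. The median log2 fold change was 0.98 over the 88 genes, 0.94 for the large and 1.01 for the small subunit, and -0.17 over all genes tested. Among abundant genes outside the family (average log2 CPM above 9) the background was higher: 91 of 232, or 39.2%, were called higher, and the median over the 183 of them that are nuclear protein-coding genes was 0.86. In the family, 62 genes were of that abundance, with 24 calls and a median of 0.94. These values lie close to those of other abundant coding genes, of which 85 were called higher. By the adjusted p alone, 48 of the 62 family genes and 101 of the 183 other genes were higher. Neither difference was tested.

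The 37 calls depend on the 2-fold line, since the median of the family lies beside it. RpL10, a protein of the large subunit near the tRNA sites, was called at a log2 fold change of 1.003, while RpS24 at 0.996 and RpS27A at 0.996 were not, although both passed the adjusted p. Of the 88 genes, 82 had at least 100 counts in a library, and these well counted genes (50 large, 32 small) all had a log2 fold change above 0, the lowest being 0.28. A gene could reach this count in the deeper abd-A libraries alone, and of the 6 tested genes left out only 1 was above 0. Over all 88 genes, 83 were above 0. Of all 11624 genes tested 5292 were above 0. So were 141 of the 183 abundant nuclear protein-coding genes outside the family, and all 62 family genes of that abundance. In 80 of the 82 every abd-A library was above both controls, where 27.3% of all genes tested had this order. Among the abundant nuclear protein-coding genes outside the family, 128 of 183 had it, against 61 of the 62 family genes of that abundance. This difference was not tested. The exceptions among the 82 were RpL3 and RpL24-like. The reverse order was found in 3 of the 88 genes (RpS10a, RpS5b and RpL22-like) and in 29.3% of all genes.

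**Figure D1:**
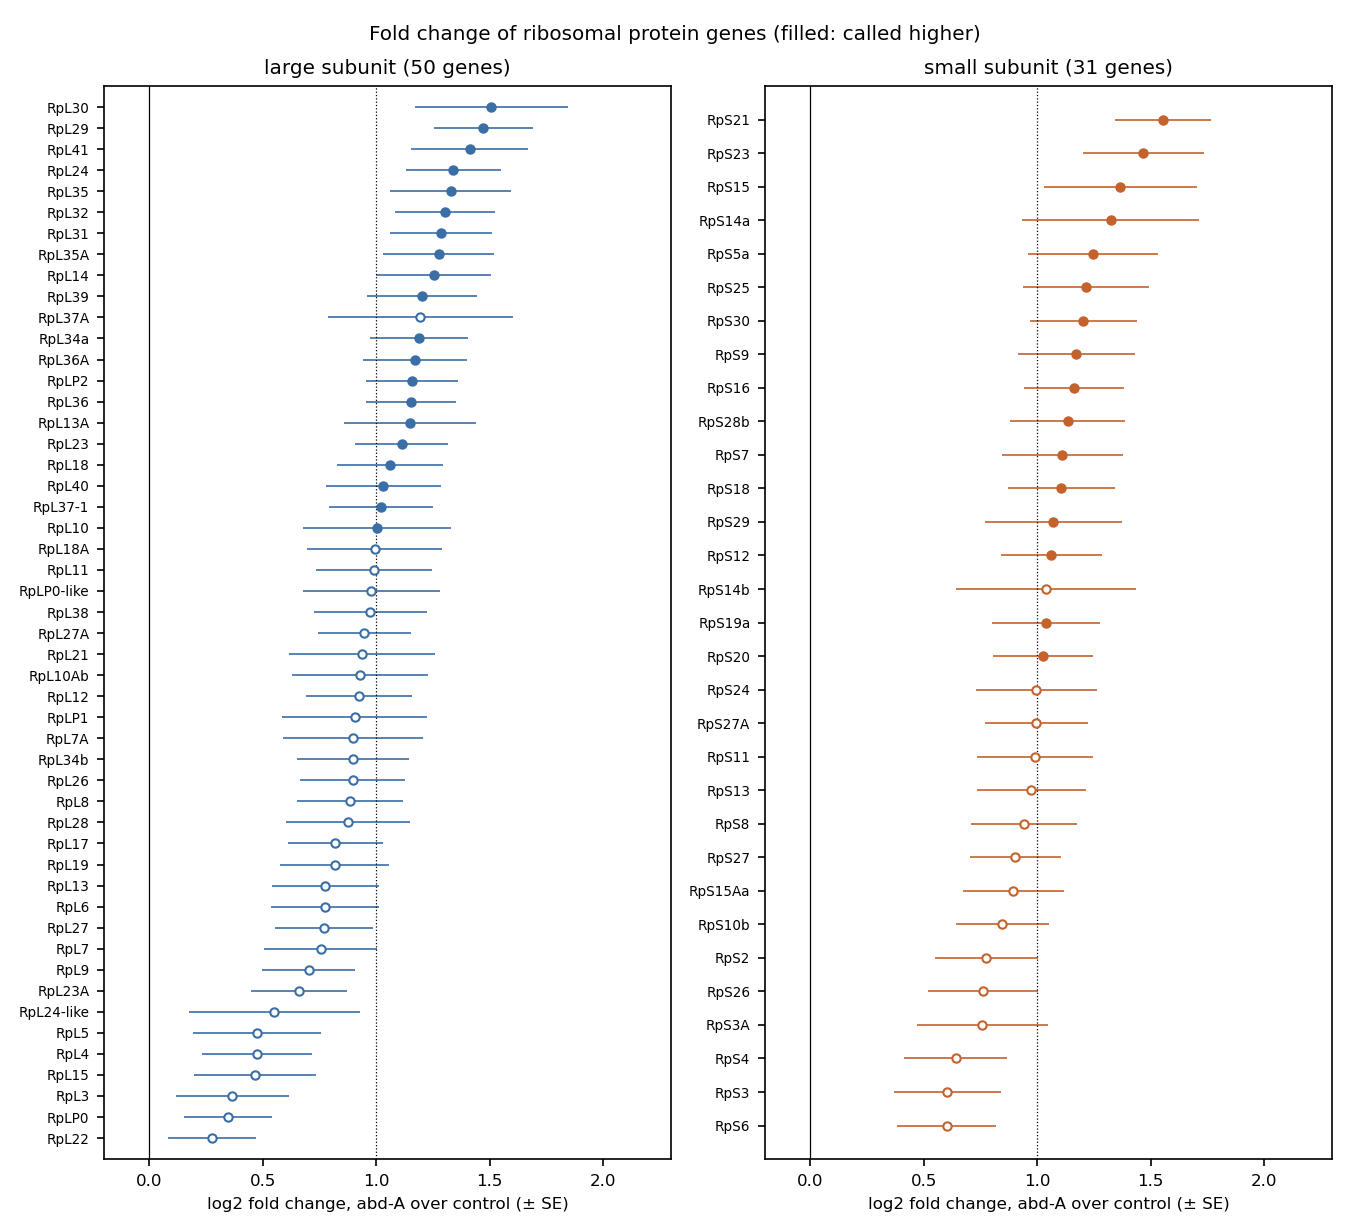
Log2 fold change (x axis, abd-A over control, with its standard error as a line) of 81 well counted ribosomal protein genes, 50 of the large subunit in blue and 31 of the small subunit in orange. Filled points mark the genes called higher, the dotted line marks 2-fold, and all 81 points lie to the right of 0, from RpL22 at 0.28 to RpS21 at 1.55.

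The 2 controls differed from each other over the whole family, and this sets the size of the change. Over the 82 well counted genes the median log2 ratio of control replicate 2 to control replicate 1 was 0.62, and 81 of the 82 were higher in replicate 2. Over all 6350 genes with at least 10 counts in every library this median was 0.05. Among the abd-A libraries the median range of a ribosomal protein gene was only 0.12 on the log2 scale. Per kb of exon, the median gene stood at 374 CPM in control replicate 1 and 577 in control replicate 2, and at 920, 876 and 913 CPM in the 3 abd-A libraries. Without control replicate 1 the median log2 fold change of the family was 0.67, which was 0.73 above the median of all genes tested. Without control replicate 2 the family median was 1.32, or 1.21 above that of all genes. In the fit of all 5 libraries it was 1.155 above. Leaving out abd-A replicates 1, 2 and 3 in turn moved the family median little (0.96, 1.00 and 0.95). These fits left 14, 26 and 20 genes of the family called higher, where 6.08, 7.30 and 6.74% of all genes were. The direction of the well counted genes stood in all these fits, with all 82 of them above 0. The smaller control is also the one with fewer fat body counts, and the part of depth and of fat body RNA in this gap was not tested.

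**Figure D2:**
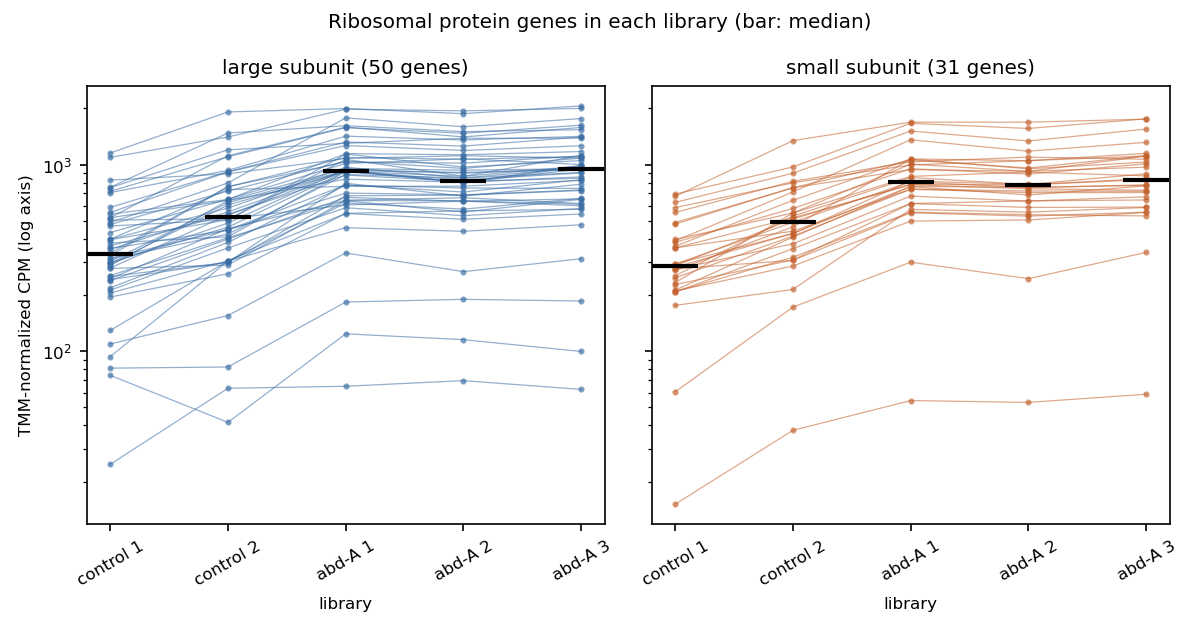
Level of each of 81 well counted ribosomal protein genes in each library (y axis, TMM-normalized CPM, log axis; x axis, library), with lines joining the values of a gene and a black bar at the median of each library. In both subunits control replicate 1 is lowest, control replicate 2 lies between it and abd-A, and the 3 abd-A libraries are nearly level.

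Large changes were found in both subunits. RpS21, a small subunit protein whose loss in flies causes overgrowth of the hematopoietic organs, stood at 176 and 214 CPM in the controls and at 575, 556 and 589 in abd-A. It rose by 1.55 ± 0.21 (SE) on the log2 scale, with the smallest adjusted p of the family (0.00092, edgeR). RpS23, which sits at the decoding centre, had 271 and 464 CPM against 1071, 949 and 1032. Its log2 fold change was 1.47 ± 0.27 (adjusted p = 0.0039, edgeR).

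In the large subunit, RpL30 had the largest value at 1.51 ± 0.34 (adjusted p = 0.010, edgeR). It stood at 129 and 304 CPM in the controls against 622, 577 and 659, so that control replicate 2 was nearer to abd-A. RpL29 rose by 1.47 ± 0.22 (adjusted p = 0.0014, edgeR), with 242 and 300 CPM against 794, 678 and 785. RpL41, the smallest protein of the ribosome with 25 residues, had 489 and 797 CPM against 1780, 1595 and 1765, a log2 fold change of 1.41 ± 0.26 (adjusted p = 0.0040, edgeR). Per kb of exon RpL41 also had the highest level of the family, at a mean of 4016 CPM over the libraries, followed by RpS27A at 2247 and RpL36A at 1538. RpL24, RpL29, RpL32, RpL41, RpS21 and RpS23 were called higher in all 18 alternative fits, and were picked out after these were seen. RpL32 is the gene (rp49) that fly laboratories often use as the reference in qPCR. Its levels here were 195 and 260 CPM in the controls and 548, 565 and 576 in abd-A, with no overlap, a log2 fold change of 1.30 ± 0.22 (adjusted p = 0.0027, edgeR).

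Among the well counted genes, the 6 smallest changes were all in the large subunit (RpL22, RpLP0, RpL3, RpL15, RpL4 and RpL5, from 0.28 to 0.47). RpL22 had 504 and 512 CPM in the controls and 607, 636 and 601 in abd-A. The groups did not overlap, but the log2 fold change of 0.28 ± 0.19 did not pass the test (adjusted p = 0.31, edgeR). A noncoding gene on the same strand shares 377 of its 1100 exonic bases. RpLP0, the base of the stalk that recruits elongation factors, was at 0.35 ± 0.19 (adjusted p = 0.21, edgeR). Its levels were 826 and 893 CPM against 1079, 1116 and 1083. The proteins that it carries differed in their values: RpLP2 was called at 1.16 ± 0.20 (adjusted p = 0.0032, edgeR) and RpLP1 was at 0.90 ± 0.32 (adjusted p = 0.065, edgeR). RpLP2 was alike in the controls (380 and 410 CPM), while RpLP1 was not (287 and 641). RpL3, at the peptidyl transferase centre, had 1153 and 1915 CPM against 1997, 1875 and 2063, so control replicate 2 lay within the abd-A range (0.37 ± 0.25, adjusted p = 0.30, edgeR). Differences between single members were not tested.

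Other members with a known special role lay between these. RpS6, phosphorylated by S6 kinase downstream of TOR and known in fly mutants for overgrown blood organs with melanotic masses, was at 0.60 ± 0.22 and did not pass (adjusted p = 0.070, edgeR), with 588 and 799 CPM against 996, 1049 and 1112. RpS12, needed in flies for the cell competition that removes Minute cells, was called at 1.06 ± 0.22 (adjusted p = 0.0080, edgeR), with 210 and 286 CPM against 498, 505 and 554. The fusion genes RpL40 and RpS27A, which encode ubiquitin joined to a ribosomal protein, were at 1.03 ± 0.25 and 1.00 ± 0.23. Both passed the adjusted p (0.016 and 0.012, edgeR), and RpL40 passed the 2-fold line as well. RpL36A, the third by level per kb, was called at 1.17 ± 0.23 (adjusted p = 0.0056, edgeR).

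The change within the family followed the length of the encoded protein. Across the 82 well counted genes the Spearman correlation of the log2 fold change with protein length was -0.62, and -0.65 with the length of the canonical transcript. The genes share the same 5 libraries, so this is a description across genes and not across replicates. The 17 genes for proteins of under 120 residues had a median of 1.16 and 12 were called higher. The 41 genes from 120 residues to just under 200 had 1.04 and 22 calls. The 24 genes of 200 residues or more had 0.77 and only 3 calls, among them RpS5a at 1.25. RpL3 (416 residues) and RpL4 (401) were the longest and were among the 6 lowest. In other abundant coding genes (183) the same correlation with protein length was -0.17, and over all 10466 coding genes tested with a protein length it was -0.07. These 2 sets were not limited to the lengths of the family (25 to 416 residues), so the correlations are not matched in range. The fold change was also lower in genes with more counts, with a Spearman correlation of -0.46 with the mean CPM. The parts of fragment size, level and RNA quality in this gradient were not tested. Other features showed little: the 28 genes that host a snoRNA in an intron had a median of 0.94 against 1.01 for the 54 others, and the 14 X-linked genes had 1.03 against 0.99 for the 68 autosomal ones.

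**Figure D3:**
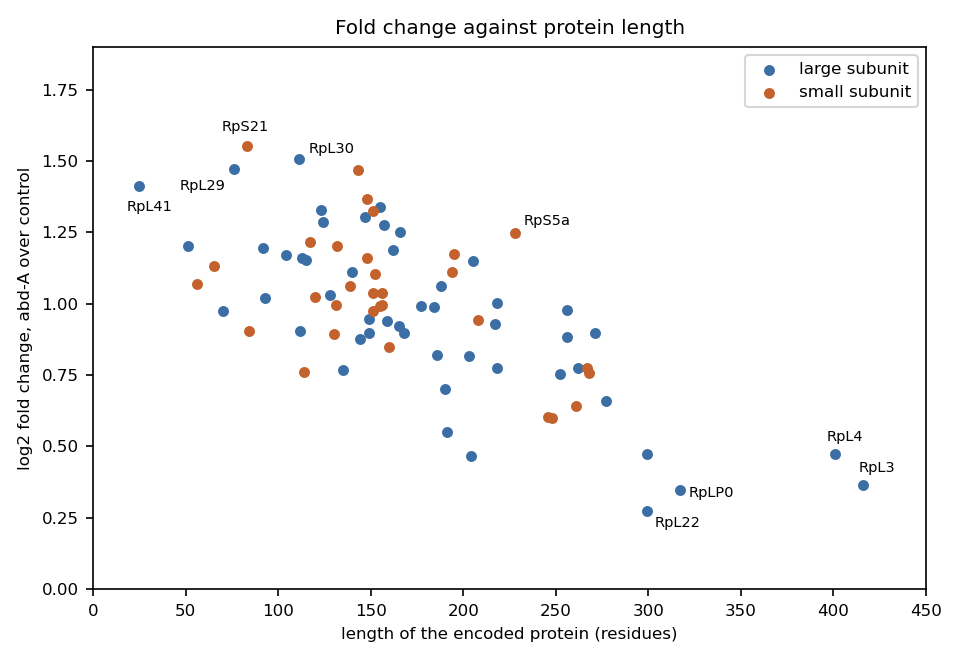
Log2 fold change (y axis, abd-A over control) against the length of the encoded protein in residues (x axis) for 81 well counted genes, large subunit in blue and small subunit in orange. The points run from high values for short proteins (RpL41, RpL29, RpS21) to low values for the longest (RpL4, RpL3). The Spearman correlation over all 82 well counted genes was -0.62.

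The balance of the subunits was compared by summed counts per kb. The summed counts per kb of the large subunit genes were 1.91 and 1.83 times those of the small subunit genes in the controls and 1.83, 1.79 and 1.80 times in abd-A (means 1.87 ± 0.06, n = 2, and 1.81 ± 0.02, n = 3, SD). Control replicate 2 and abd-A replicate 1 were nearly equal, at 1.832 and 1.825. The difference had the smallest p that the exact permutation test can give with 2 against 3 libraries (0.1, two-sided), so it cannot pass the threshold.

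Flies carry second copies of several ribosomal protein genes, and 14 pairs of copies were compared by the share of the minor copy in the pair's counts per kb. In 11 pairs the minor copy had any count. RpL7-like, RpL10Aa and RpS28-like had 0 in every library. RpS28a had 1 count in a control and 6 in an abd-A library and was not tested. None of the 11 differences passed (exact permutation tests, two-sided, every p at least 0.1 and at least 0.22 after Benjamini-Hochberg adjustment over the pairs), and 2 against 3 libraries do not allow a smaller p. The low counts of these copies are given below as counts.

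The low copies RpL22-like, RpS5b, RpS10a and RpL37-2 had their counts mainly in the controls. For RpL22-like, which replaces RpL22 mostly in germ cells, there were 36 and 12 counts in control libraries against 0, 4 and 2 in the deeper abd-A libraries. It was called lower (log2 fold change -4.79 ± 1.39, adjusted p = 0.032, edgeR). For depth-scaled summed counts, controls were 25.5 times abd-A with an exact 95% interval of 10.9 to 72.8, which covers counting error only. RpS5b, the ovary copy of RpS5a, had 16 and 12 counts against 1, 1 and 0, a ratio of 44.6 (11.2 to 386). It was called lower at an adjusted p of 0.044 (edgeR). Both calls were lost without control replicate 1 and without any 1 of the abd-A libraries. RpS10a, the testis copy of RpS10b, had 4 and 8 against 0, 0 and 0. Its mean level in the controls was 4.13 times a floor of 3 counts in each abd-A library. This ratio leaves out the counting error of the controls. The adjusted p of RpS10a was 0.093 (edgeR). RpL37-2 had all its 12 counts in control replicate 1, and its adjusted p was 0.12 (edgeR). With the fold changes of RpS10a and RpL37-2 taken from this floor the median of the family stayed at 0.98. Of their partners, RpS5a was called higher at 1.25 ± 0.29 (adjusted p = 0.012, edgeR) and RpL37-1 at 1.02 ± 0.23 (adjusted p = 0.011, edgeR). RpS10b, at 0.85 ± 0.21, passed the adjusted p only (0.016, edgeR), and RpL22, as given above, passed neither.

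The summed level of germline and testis markers was also lower in abd-A, but not that of every marker. The 13 markers summed to 173 and 78.0 CPM in the controls and to 21.7, 19.1 and 17.7 in abd-A. Of the 10 tested, 4 were called lower (dj, bb8, ocn and loopin-1). In every abd-A library 5 markers (Mst84Da, Mst87F, aly, ocn and loopin-1) were at 0. The marker nanos had 21.3 and 10.5 CPM in the controls and 12.3, 13.9 and 11.5 in abd-A, inside the control range. Its log2 fold change was -0.32 ± 0.57 (adjusted p = 0.71, edgeR). vas was under 1 CPM in every library and was not tested. Control replicate 1 had the highest sum of these markers, though not of each one (aub, Mst84Da and vas were higher in control replicate 2). It was also highest in CPM for RpL22-like, RpS5b, RpL37-2 and RpS19b, while RpS10a was slightly higher in control replicate 2 (2.75 and 3.10 CPM). Their part in the calls on RpL22-like and RpS5b was not tested. RpS19b, a copy of RpS19a used in the germline, had 18 and 6 counts against 9, 2 and 22, and its groups overlapped (log2 fold change -1.56 ± 1.32, adjusted p = 0.40, edgeR). RpS19a was called higher at 1.04 ± 0.24 (adjusted p = 0.012, edgeR). RpS15Ab had 16 and 54 counts against 64, 83 and 75, a log2 fold change of 0.12 ± 0.53 (adjusted p = 0.88, edgeR), which was below 0 under other scalings, and RpS15Aa was at 0.90 ± 0.22 (adjusted p = 0.017, edgeR).

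The better counted minor copies held larger shares of their pairs, and none of the differences between groups passed the test above. RpL34a made up 32.3 and 23.2% of its pair with RpL34b in the controls and 30.0, 33.7 and 29.8% in abd-A. RpL34a was called higher (1.19 ± 0.22, adjusted p = 0.0039, edgeR), and RpL34b at 0.90 ± 0.25 passed the adjusted p only (0.027, edgeR). RpS14b made up 26.9 and 24.3% of the RpS14 pair in the controls and 21.0, 24.2 and 20.3% in abd-A. RpS14a and RpS14b are neighbours on the X chromosome and encode the same protein, so the division of reads between them is uncertain. RpS14a was called at 1.32 ± 0.39 (adjusted p = 0.034, edgeR) and RpS14b at 1.04 ± 0.40 was not (adjusted p = 0.081, edgeR). RpL24-like and RpLP0-like resemble RpL24 and RpLP0, and their counterparts in yeast are assembly factors of the large subunit, absent from the mature ribosome. RpL24-like held 13.9 and 25.7% of counts per kb with RpL24 in the controls and 13.5, 14.2 and 12.3% in abd-A, so 1 control lay beside abd-A. RpLP0-like held 11.2 and 6.11% with RpLP0 against 13.9, 12.6 and 11.4%, so every abd-A value was above both controls. For RpS14b every abd-A share was below both controls. RpLP0-like was at 0.98 ± 0.30 (adjusted p = 0.041, edgeR) and RpL24-like at 0.55 ± 0.38 (adjusted p = 0.30, edgeR).

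**Figure D4:**
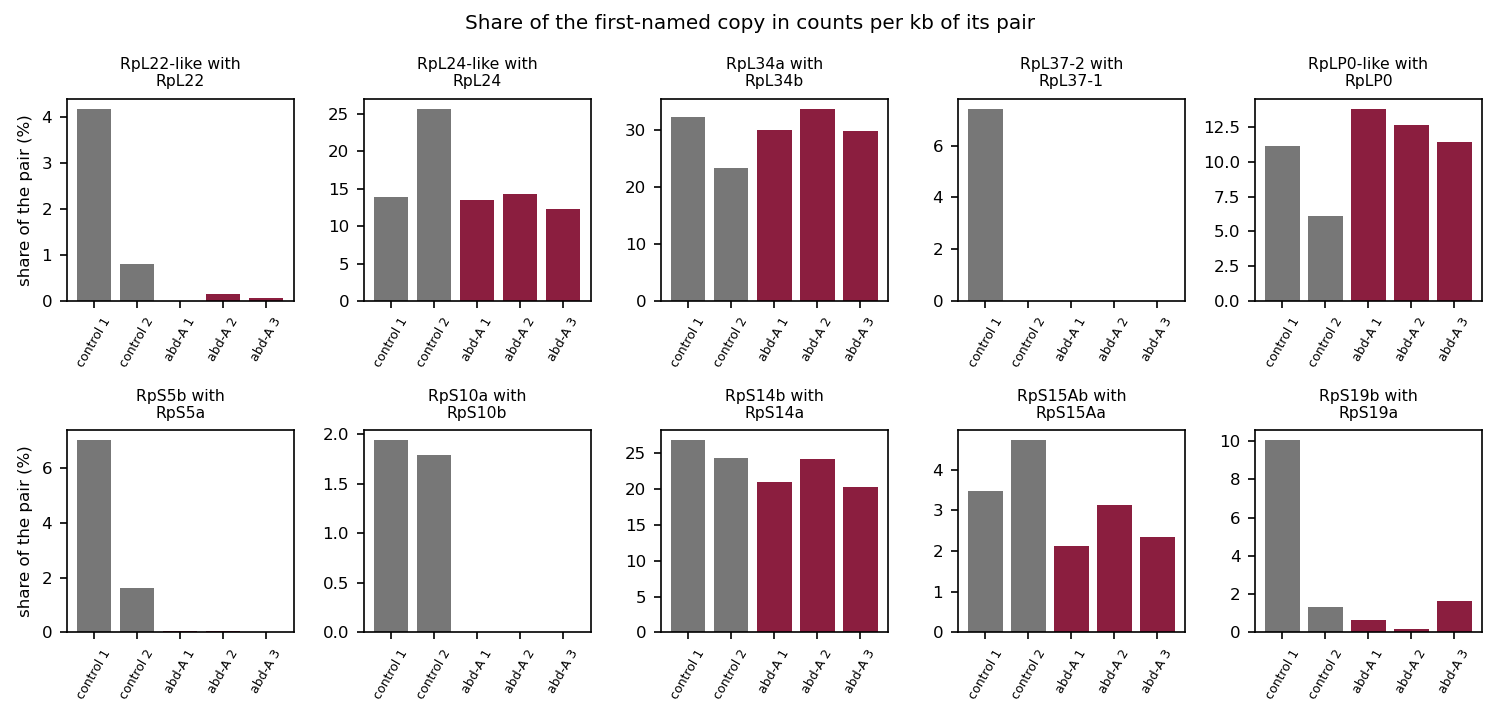
Share (y axis, percent, from 0, each panel with its own scale) of the first-named copy in the summed counts per kb of its pair, for the 10 pairs whose minor copy had at least 10 counts, in the control libraries (grey) and the abd-A libraries (red). RpL22-like, RpS5b, RpS10a and RpL37-2 are at or near 0 in abd-A, while RpL34a and RpS14b hold between 20.3 and 33.7% of their pairs in every library.

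Genes that overlap on opposite strands show a limit of these counts. The library kit keeps the strand of the RNA, and the strand setting used in counting is not given in the sources used here. Exons of 25 of the 82 well counted genes overlap a gene on the other strand, and in 3 cases that gene is an antisense noncoding gene sharing over 100 bases. RpS9 shares 512 bases with asRNA:CR45874. For RpS9 the counts were 302 and 912 in the controls and 2766, 2346 and 3035 in abd-A, and the antisense gene had 12466 and 12833 against 24925, 24583 and 25147. Per kb, the antisense gene was 48.1 and 16.4 times RpS9 in the controls and 10.5, 12.2 and 9.66 times in abd-A. RpS9 was called higher (1.17 ± 0.26, adjusted p = 0.010, edgeR), while the antisense gene was at -0.21 ± 0.27 (adjusted p = 0.60, edgeR). For RpL3 and asRNA:CR31144, which share 412 bases, the ratio was 32.2 and 12.9 against 9.21, 11.7 and 7.94. The antisense gene was at -0.71 ± 0.25 (adjusted p = 0.065, edgeR). For RpL37A and asRNA:CR45305 (153 bases) it was 24.0 and 4.15 against 3.56, 5.19 and 3.41, and RpL37A itself was at 1.19 ± 0.41 (adjusted p = 0.058, edgeR).

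In all 3 pairs the antisense gene was the denser one in every library, most of all in control replicate 1. The antisense genes of RpS9 and RpL3 also overlap snoRNA genes that lie within the ribosomal protein gene and on its strand. Which strand the counts of the ribosomal protein genes come from was not tested. The sequencing depth stated in the paper is well above every library total given here, and the cause of that gap was not tested. The values of the family, CPM levels included, are therefore given as counts assigned to these genes and not as mRNA abundance. The 25 genes that overlap a gene on the other strand had a median of 1.06 on the log2 scale, with 13 calls. The 52 well counted genes with no exon overlap on either strand had 0.99, with 23 calls. The strand setting applies to every gene, so these medians cannot show which strand was counted.

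**Figure D5:**
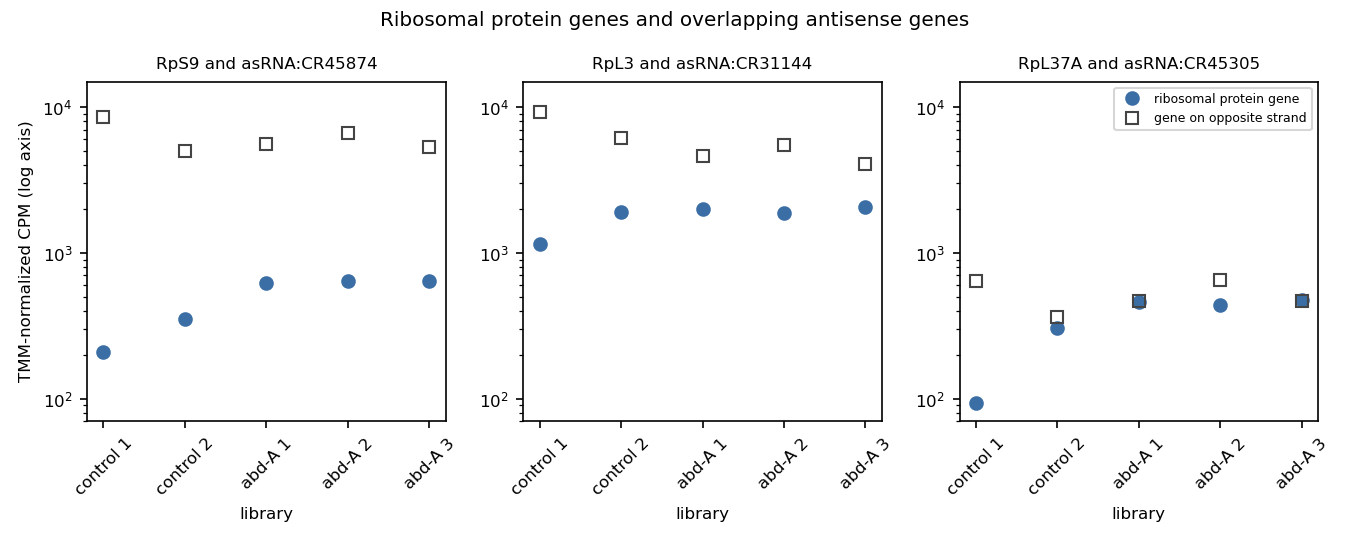
Level (y axis, TMM-normalized CPM, log axis) of RpS9, RpL3 and RpL37A (blue circles) and of the antisense gene that overlaps each (open squares) in the 5 libraries (x axis). For RpS9 and RpL3 the antisense gene is above the ribosomal protein gene in every library, and in all 3 panels control replicate 1 has the widest gap.

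Other genes of cytosolic translation were read from lists of the ribosome, its factors and its regulators. The ribosome components sta and Rack1, which the symbol rule does not take, were at 0.62 ± 0.24 (adjusted p = 0.085, edgeR) and 0.75 ± 0.25 (adjusted p = 0.048, edgeR), within the range of the family and under the 2-fold line. Of 12 elongation and release factors and their partners, 6 were called higher (eEF1delta at 1.47, eRF3 at 1.19, Nacalpha at 1.06, eEF5 at 1.04, bic at 1.03 and eRF1 at 1.02) and 1 lower (eEF1alpha2 at -5.76), where 11% of all genes tested were called higher and 12.7% lower, and 39.2% of abundant genes outside the family were called higher. DESeq2 called 3 of the 12 and limma-voom 7. eEF1alpha2, the form found in muscle and nerve, fell together with the 5 muscle markers above. The most abundant factors, eEF1alpha1 at 0.37 ± 0.25 and eEF2 at 0.43 ± 0.27, did not pass (adjusted p = 0.30 and 0.26, edgeR).

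All 7 listed nucleolar, assembly and export genes outside the family were called higher, where 11% of all genes tested were. The list held 9 names, and the other 2 stand for RpLP0-like, which is in the family. DESeq2 and limma-voom each called 6 of the 7. They were Fib, the fibrillarin that methylates rRNA (2.09), eIF6, which keeps new large subunits from joining (1.94), Nop56 (1.49), mbm (1.37), Non3 (1.37), Nmd3, the export adaptor of the large subunit (1.26), and nop5 (1.04). Their median of 1.37 was above that of the ribosomal protein genes, and this difference was not tested. Of 13 regulators, only S6k was called (1.05 ± 0.21, adjusted p = 0.0059, edgeR). Myc had 289 and 489 CPM in the controls and 392, 396 and 398 in abd-A, with the abd-A values inside the control range (0.02 ± 0.25, adjusted p = 0.96, edgeR), and its sign changed with the scaling. None of the 7 genes linked to a lowered dose of ribosomal proteins was called in the edgeR test, while 3 had an unadjusted p under 0.05 (Gcn2, Shmt and Xrp1). Of these 7, limma-voom called 0 and DESeq2 called 1 (Shmt, lower). Xrp1, the transcription factor of that response, was at 0.58 ± 0.23 (adjusted p = 0.091, edgeR). Over the 40 genes of these lists, 15 were called in all, but 7 without abd-A replicate 1 and 6 without abd-A replicate 3.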

How the data were processed

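RNA from larval hemolymph was analysed in 2 control (Cg-Gal4 > CS) and 3 abd-A (Cg-Gal4 > UAS-abd-A) libraries. Per the submitters' notes, the authors used FastQC 0.11.7, STAR 2.5.2 (dm6) and HTSeq 0.11.2. The deposited table gives each gene's count in each library, without scaling. Annotation release, strand setting and counting mode are not given in the sources used here. Symbols, coordinates and lengths came from Ensembl BDGP6.54 (17710 of 17807 identifiers matched).

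Genes with a summed count of at least 10 (11624) were tested with edgeR 4.0.16 in R 4.3.3 (TMM, quasi-likelihood F-test, Benjamini-Hochberg adjustment, 1 fit, no covariate). CPM are counts scaled to a common library size after TMM. Each library is a separate pool of larvae, and whether pools came from separate crosses is not stated. Counts of 3 served as the floor. The fit was tested on simulated data. DESeq2 1.42.0, limma 3.58.1, other scalings and filters, thinned counts and leaving out libraries were alternatives. Those with thinning and with genes free of opposite-strand overlap were chosen after seeing the data.

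Named genes were every paralog, the 5 highest and 5 lowest tested, genes called lower, the 3 highest per kb, stalk and fusion genes, RpS6 and RpS12, and of the lists those called and a few set ones. Others were chosen after their values were seen, as were the best-called genes, RpL3, RpL4, RpL10, RpL32, RpL37A, RpS9 and RpS24. Members and lists were chosen with earlier results of these data known. The smallest library sets the precision. A single gene of the family is counted in the totals and is not reported here by itself.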

Additional observations from a re-analysis of the deposited data

How the results depend on the processing

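The median of the family stayed above 0.67 and all 82 well counted genes stayed above 0 in all 18 alternatives, but the calls at 2-fold moved. The DESeq2 test called 26 genes higher and limma-voom 45, against 37 as reported. With DESeq2 size factors 25 were called higher, and also 25 with at least 10 counts required in every library. Genes called higher numbered 20 with upper-quartile normalization, 20 with library totals, 24 with counts thinned to the smallest library, and 14 to 67 with 1 library left out (14 without control replicate 1 or abd-A replicate 1, 67 without control replicate 2). Genes called lower numbered 0 with at least 10 counts required in every library, 0 with thinned counts and 0 to 3 with 1 library left out. By adjusted p alone 14 to 81 were higher with 1 library left out. Those fits gave medians of 0.67 to 1.32 for the family, 0.64 to 1.26 for the large and 0.75 to 1.36 for the small subunit, and 6 to 18 calls among the other translation genes (15 of 40 in the reported fit, 9 with at least 10 counts in every library, 7 with thinned counts).

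Replicate numbers showed no sign of pairing the samples (correlations of deviations between -0.02 and 0.02). The deviations of the 2 controls mirror each other, so this check cannot establish that pairing is absent. A replicate block gave 14 genes called higher, 0 lower, 14 by adjusted p alone, 5 other translation genes and a median of 1.02.

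Scalings by DESeq2 size factors, upper quartile or totals moved the median of all genes from -0.17 to -0.32, -0.35 and -0.36, and the family stayed 1.16 to 1.17 above it. Calls over all genes were 1274 higher and 1481 lower as reported, 1045 and 1696 with DESeq2 size factors, 989 and 1724 with upper quartile, and 867 and 831 with the block.

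Some signs turned. Myc was at -0.12 with DESeq2 size factors, -0.15 with upper quartile, -0.14 with totals, -0.12 with 10 counts in every library, -0.12 in the DESeq2 test, -0.078 with genes free of opposite-strand overlap, -0.061 with thinning, and -0.32 to 0.43 with 1 library left out. RpS15Ab was at -0.017, -0.044, -0.035, -0.024 and -0.018 in the first 5 of these, -0.32 with thinning and -0.26 to 0.65 with 1 left out. RpS19b was at -2.47 to 0.052 with 1 left out. With 1 left out, the difference between groups in the share of RpL34a in its pair was -1.08 to 7.93 percentage points, in the share of RpL37-2 in its pair -7.43 to 0, and in the share of RpS28a in its pair -0.15 to 0.24. The causes were not tested. Depth limits the rare copies, which rest on a few counts in the smaller libraries.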

Other observations

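The order of fold changes seen for RpS9, RpL3 and RpL37A and their antisense genes was also found in other pairs. Over 240 pairs of an annotated antisense RNA and a coding gene, where the coding gene is the only one that the antisense RNA overlaps and covers at least 50% of its exonic bases, the median log2 fold change was -0.49 for the antisense RNAs and -0.06 for the coding genes, and the coding gene was above its antisense partner in 176 pairs. In the 135 pairs whose antisense RNA had an average log2 CPM above 6, the medians were -0.22 and 0.37, with the coding gene above in 111. These pairs share the 5 libraries, and 1 of them holds a ribosomal protein gene (RpL37A).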
